A study of Mus musculus with 9 samples.

Results

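The genes described here encode the core of the inflammasome and pyroptosis pathway: the sensors Nlrp3, Nlrc4, Aim2 and Naip5, the adaptor Pycard, the inflammatory caspases Casp1 and Casp4, the pore-forming protein Gsdmd and the cytokine Il18. They were chosen by name for their known roles, and make up 9 of the 45777 genes in the deposited tables. All 9 passed the filter on low values, which kept the 13820 genes that reached 1 TPM in 3 or more samples. TPM is a transcript level corrected for gene length and scaled to the same total in each library, so levels of different genes can be compared. Differences between groups are given on the log2(TPM + 1) scale, where they slightly understate the change of low genes.

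Inflammasomes are cytosolic complexes that form when a sensor protein detects a microbial product or a sign of cell damage. NLRP3 responds to disturbances such as potassium efflux, AIM2 binds cytosolic DNA, and NAIP proteins bind bacterial flagellin or secretion-system proteins and then engage NLRC4. The adaptor ASC, the product of Pycard, links sensors to caspase-1, which cleaves the precursors of IL-1β and IL-18 and also cleaves gasdermin D, whose fragment forms pores in the plasma membrane. Mouse Casp4 encodes caspase-11, which senses bacterial lipopolysaccharide directly and also cleaves gasdermin D. In liver injured by paracetamol (acetaminophen, APAP), dead hepatocytes release DNA and other products that myeloid cells sense. Because assembly and cleavage are protein events, transcript levels do not measure inflammasome activity.

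The samples were CD11b+ cells, that is, cells carrying the myeloid integrin encoded by Itgam, isolated from dissociated livers of mice (Mus musculus) and measured by bulk RNA sequencing. Every group received APAP by intraperitoneal injection, livers were taken 48 hours later, and no uninjured group was used here. The control group is labelled PBS, and the other groups received extracellular vesicles (EVs) intravenously 8 hours after APAP. Vesicles labelled SIRP-EV came either from the HEK line of human embryonic kidney origin (HEK-EV) or from cells labelled MSC (MSC-EV). Each group had 3 samples. The labels do not spell out SIRP or MSC, do not give the strain, sex or age of the mice, and do not say whether a sample is 1 mouse or a pool, so p-values measure only the spread between these samples.

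Libraries stood apart in ways that touch the results below. Itgam, the gene of CD11b, was at 289 to 434 TPM in the PBS and HEK-EV libraries and at 196 to 255 TPM in those of MSC-EV. The 6 general myeloid genes of the list for the label summed to between 17904 and 23266 TPM, most of it Lyz2 (13329 to 18741 TPM), and lymphocyte markers summed to at most 15.7 TPM. Pancreatic acinar transcripts summed to 15.3 TPM in HEK-EV replicate 1, 600.5 TPM in HEK-EV replicate 2, 69.2 TPM in MSC-EV replicate 1 and 1697 TPM in MSC-EV replicate 3, and to at most 0.305 TPM in the other 5 libraries. PBS replicate 1 had 6021 TPM of Ly6C-high monocyte markers where the other PBS libraries had 11477 and 12031 TPM. The ratio of coverage to FPKM, which follows sequencing depth, was 5.28 in PBS replicate 1 and 6.06 to 6.84 elsewhere, and was highest in the 3 MSC-EV libraries. Depth in reads is unknown.

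All 9 genes were transcribed in every library. Gsdmd had the highest mean level over the 9 samples at 148 TPM, followed by Casp1 at 138 TPM and Nlrp3 at 111 TPM, which placed them at the 92.2, 91.5 and 89.3 percentiles of the genes tested. Naip5 (68.4 TPM), Il18 (59.4 TPM), Aim2 (58.7 TPM), Pycard (48.0 TPM) and Casp4 (47.9 TPM) formed a middle range. Nlrc4, the partner of the NAIP proteins, was far lower at 15.1 TPM, the 47.1 percentile. In this order Nlrp3 exceeded Naip5, Aim2 exceeded Pycard and Casp4 exceeded Nlrc4 in 9 of 9 samples. The ranges of the other neighbours overlapped. Gsdmd was above Casp1 and Casp1 above Nlrp3 in 8 of 9 samples each, Naip5 was above Il18 in 7 of 9, Il18 above Aim2 in 5 of 9 and Pycard above Casp4 in 4 of 9. These are levels, not differences between treatments. Apart from the genes placed below, the files put Nlrp3 at chr11:59541569-59566955 and Aim2 at chr1:173349547-173466040, both on the plus strand, as is Gsdmd at chr15:75862144-75867408 (mm10). Nlrc4 at chr17:74426255-74459144, Naip5 at chr13:100211735-100250930 and Pycard at chr7:127991373-127993867 are on the minus strand.

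**Figure D1:**
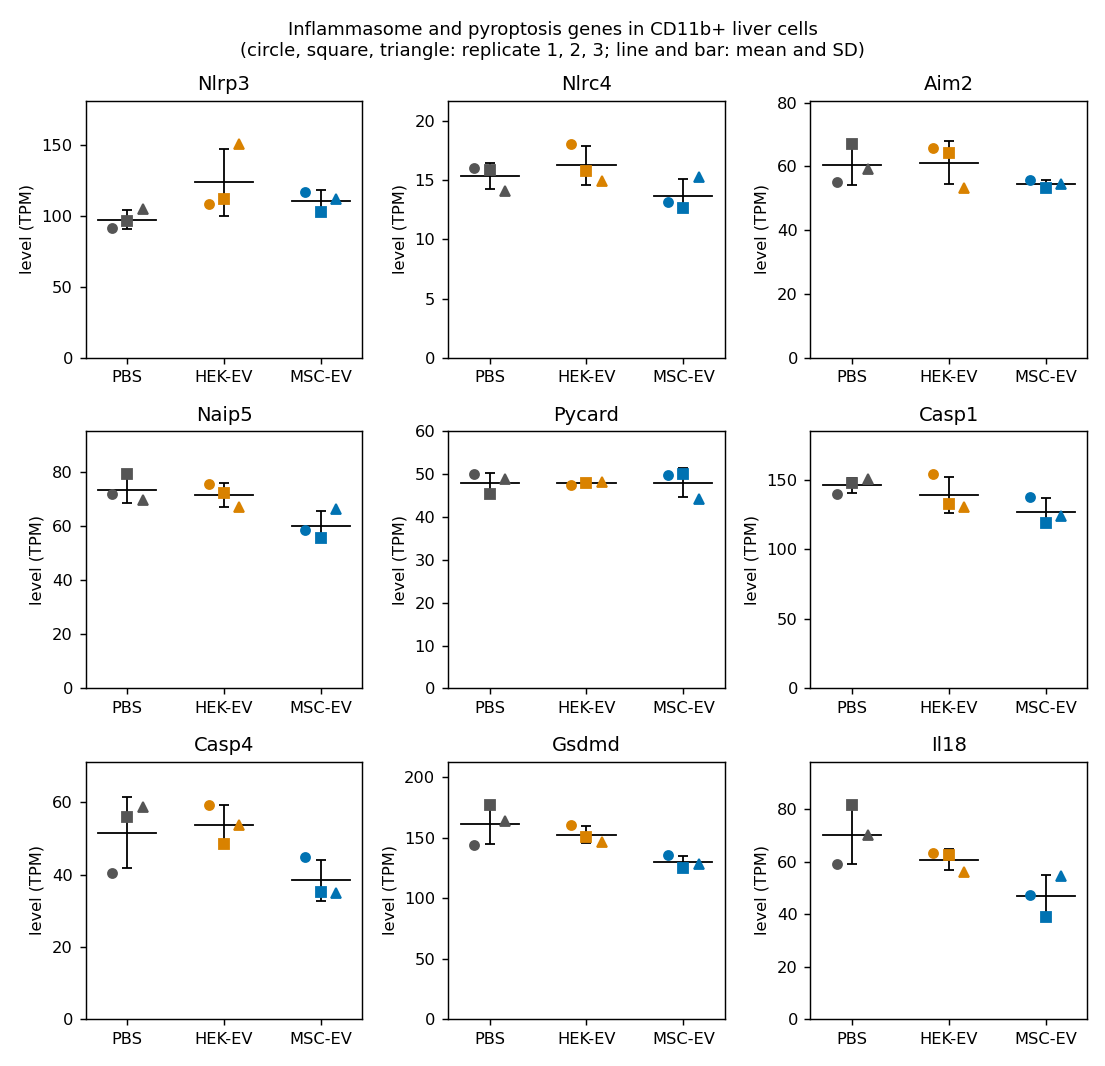
Level in TPM of each of the 9 genes in every library, by group (PBS, HEK-EV, MSC-EV, 3 samples each), on linear axes from 0. Symbols are single samples, and the line and bar are the mean and SD; the MSC-EV samples of Naip5, Gsdmd and Il18 lie below all samples of both other groups, while the groups of Pycard overlap.

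MSC-EV was compared with PBS to ask how CD11b+ cells of injured liver differed after MSC-derived vesicles. Of the 9 genes, 1 passed the threshold of an adjusted p of 0.05 (limma, Benjamini-Hochberg over all 13820 genes) and 0 were higher. Il18 was lower, with a mean of 47.0 ± 7.86 TPM against 70.4 ± 11.2 TPM in PBS (SD, n = 3). The background was 5.11% of all genes tested in this comparison, 3.25% lower and 1.86% higher. The higher calls were 36.4% of the calls, and 47.2% with median-of-ratios scaling, 44.5% with quantile normalization and 58.7% with FPKM. The estimates of 8 of the 9 genes were below 0, as were those of 6589 of all 13820 genes. The median of the 9 was -0.20, beside 0.01 for all genes tested. Of the 9, 5 had an unadjusted p under 0.05 and a lower level, where 13.1% of all genes did. In 4 of them, Naip5, Casp1, Gsdmd and Il18, every MSC-EV sample was below every PBS sample, as in 14.9% of all genes. In bulk RNA, fewer cells of a type that transcribes a gene and less RNA of that gene per cell cannot be told apart.

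HEK-EV was compared with PBS in the same way. No gene passed in limma, a background of 0.0%, so 0 of the 9 did, and 1 of the 9 (Nlrp3, higher) had an unadjusted p under 0.05, where 3.58% of all genes did. The median of the 9 estimates was -0.0046, beside 0.03 for all genes. MSC-EV was compared with HEK-EV to set the source of the vesicles apart from giving vesicles at all. Of the 9 genes 0 passed in limma, where 5.91% of all genes did, and 5 were lower with an unadjusted p under 0.05, where 15.1% of all genes were. In Naip5, Casp4, Gsdmd and Il18 every MSC-EV sample was below every HEK-EV sample, as in 17.5% of all genes. The median of the 9 estimates was -0.23, beside -0.02 for all genes. These comparisons share samples, so they are not independent of each other.

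**Figure D2:**
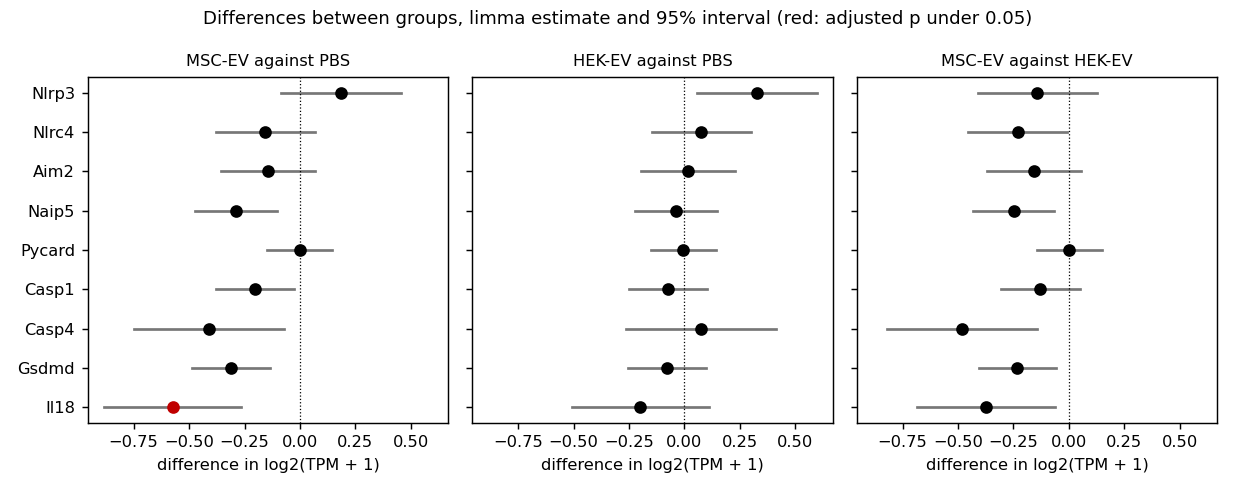
Difference between groups in log2(TPM + 1) for each of the 9 genes, with its 95% interval from limma, in the 3 comparisons. Points left of 0 are lower in the first group named; the only point with an adjusted p under 0.05 (red) is Il18 in MSC-EV against PBS at -0.57.

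Il18 encodes the precursor of interleukin-18, a cytokine that drives interferon gamma production by lymphocytes and is made by many cells before any stimulus. Its level was 59.3, 81.8 and 70.05 TPM in the PBS samples, 63.3, 62.7 and 56.2 TPM in the HEK-EV samples and 47.5, 38.9 and 54.6 TPM in the MSC-EV samples. The MSC-EV samples were the 3 lowest of the 9, PBS replicate 2 was the highest, and PBS and HEK-EV overlapped. Against PBS, Il18 fell by 0.57 on the log2 scale in MSC-EV (SE 0.137, 95% interval -0.88 to -0.26, limma adjusted p = 0.0476), a level 32.8% lower. Against HEK-EV the MSC-EV estimate was -0.37 (SE 0.137, interval -0.68 to -0.06, limma adjusted p = 0.140), and the estimate of HEK-EV against PBS was -0.20 (interval -0.51 to 0.11, limma adjusted p = 0.999). Leaving out 1 sample gave -0.49 to -0.25 for the former and -0.31 to -0.086 for the latter. The gene lies on chr9:50554700-50581841 (mm10, plus strand) and its span overlaps Bco2 and Tex12 on the minus strand; the strand setting of the counting is not given in the sources used here.

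The Il18 difference from PBS was below 0 under each of the 19 alternatives run (-0.75 to -0.45), and passed the threshold under 4 of them (limma adjusted p 0.0139 to 0.181 over the 19). Without PBS replicate 1 the adjusted p was 0.0139 and without MSC-EV replicate 3 it was 0.0389. It missed the threshold without PBS replicate 2 (0.181) or replicate 3 (0.134), without MSC-EV replicate 1 (0.143) or replicate 2 (0.133), and without HEK-EV replicate 1 (0.0605), replicate 2 (0.0767) or replicate 3 (0.0579). It also missed it with FPKM (0.0578), with median-of-ratios scaling (0.0552), with quantile normalization (0.0546), with no filter (0.101), with only the 6 samples compared (0.0870) and with depth as a covariate (0.0581). With a term for the 4 libraries that held acinar transcripts the estimate was -0.75 and the limma adjusted p was 0.0928. Calls over all genes moved as well. For MSC-EV against PBS 706 passed as reported, 1861 without PBS replicate 1, and 5 and 7 without PBS replicates 2 and 3. Without MSC-EV replicates 1, 2 and 3 in turn, 25, 59 and 469 passed.

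**Figure D3:**
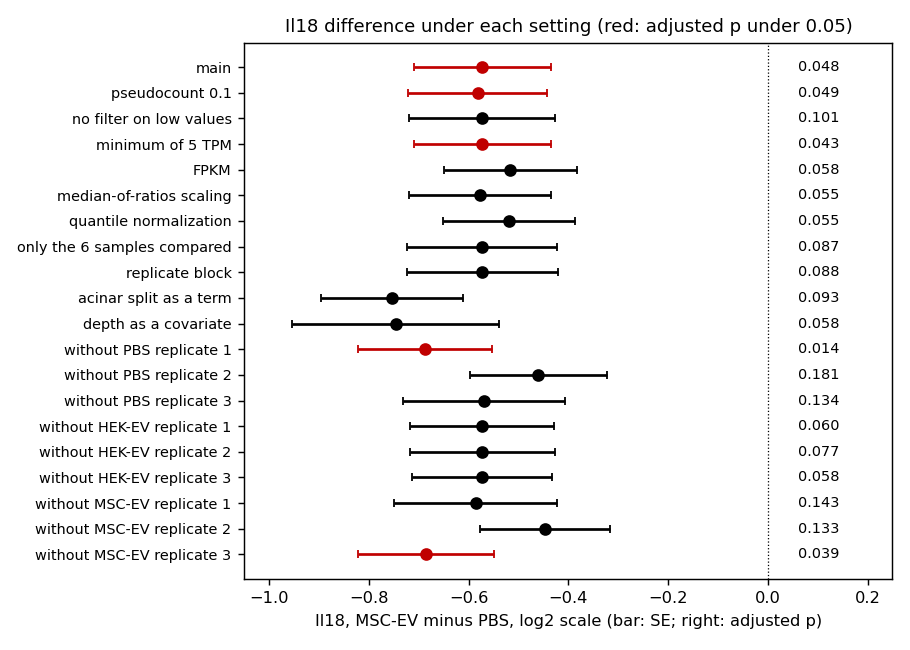
Il18 difference between MSC-EV and PBS (log2 scale, point and SE) as reported (top) and under 19 alternative settings, with the limma adjusted p of each at the right. The estimate stays between -0.75 and -0.45, and the red points, with an adjusted p under 0.05, are the reported value and 4 of the alternatives.

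Among the sensors, Nlrp3 was at 91.2, 96.3 and 104.6 TPM in PBS, at 108, 112 and 151 TPM in HEK-EV and at 117, 103 and 112 TPM in MSC-EV. Every HEK-EV sample was above every PBS sample, as in 5.51% of all genes, with HEK-EV replicate 3 well above the rest, while MSC-EV overlapped both. The estimate of HEK-EV against PBS was 0.33 (SE 0.120, interval 0.06 to 0.60), with an unadjusted p of 0.0224 and an adjusted p of 0.999 in limma. Without HEK-EV replicate 3 it was 0.175. In that setting, without PBS replicate 2 and with depth as a covariate, 0 of the 9 genes had an unadjusted p under 0.05 in limma for HEK-EV against PBS. MSC-EV differed from PBS by 0.18 (interval -0.08 to 0.45, limma adjusted p = 0.405), the only estimate above 0 among the 9 genes in that comparison. Its difference from HEK-EV was -0.14 (limma adjusted p = 0.530), and 0.0095 without HEK-EV replicate 3. Nlrp3 is itself induced by NF-kB, a step known as priming.

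Naip5, the flagellin receptor, was at 71.7, 79.1 and 69.4 TPM in PBS, at 75.5, 72.01 and 67.0 TPM in HEK-EV and at 58.4, 55.5 and 66.3 TPM in MSC-EV. All MSC-EV samples were below all samples of both other groups, by a narrow margin for MSC-EV replicate 3. The estimate against PBS was -0.29 (SE 0.0817, interval -0.47 to -0.10, limma adjusted p = 0.0744), and 0.0499 was the adjusted p without MSC-EV replicate 3. Against HEK-EV it was -0.25 (limma adjusted p = 0.103). Naip5 passed against PBS under 1 of the 19 alternatives (limma adjusted p 0.0499 to 0.258). Naip1, Naip2, Naip5 and Naip6 are related genes, Naip5 and Naip6 most closely, and may share reads, so the value of each is uncertain. Their sum was 187, 204 and 179 TPM in PBS, 193, 180 and 186 TPM in HEK-EV and 145, 139 and 166 TPM in MSC-EV. That sum, too, was lower in each MSC-EV sample than in any other sample, and Naip5 made up 36.0% to 40.3% of it.

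Nlrc4, which NAIP proteins recruit, was at 16.04, 15.9 and 14.1 TPM in PBS, at 18.1, 15.8 and 15.0 TPM in HEK-EV and at 13.2, 12.7 and 15.3 TPM in MSC-EV. The groups overlapped in each comparison, and MSC-EV held the lowest samples. The estimate was -0.16 against PBS (interval -0.38 to 0.07, limma adjusted p = 0.398) and -0.23 against HEK-EV (limma adjusted p = 0.197). Aim2, the DNA sensor, was at 55.0, 67.1 and 59.2 TPM in PBS, at 65.8, 64.2 and 53.4 TPM in HEK-EV and at 55.6, 53.2 and 54.5 TPM in MSC-EV. Its groups overlapped as well. The MSC-EV samples lay at the lower end of the range of the others. The estimate was -0.14 against PBS (interval -0.35 to 0.07, limma adjusted p = 0.408) and -0.16 against HEK-EV (limma adjusted p = 0.354). Leaving out 1 sample gave -0.21 to -0.067 against PBS and -0.25 to -0.10 against HEK-EV. The span of Nlrc4 overlaps Gm4708 on the same strand, and that of Aim2 overlaps Cadm3 on the opposite strand and a tRNA gene on its own.

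Pycard, the shared adaptor, varied least of the 9 genes. It was at 49.9, 45.5 and 48.8 TPM in PBS, at 47.4, 47.9 and 48.3 TPM in HEK-EV and at 49.9, 50.02 and 44.2 TPM in MSC-EV. No group stood apart. The difference of MSC-EV from PBS was -0.0021 with a 95% interval of -0.15 to 0.14 (limma adjusted p = 0.990), and that of HEK-EV from PBS was -0.0046. The MSC-EV estimate was above 0 with FPKM and with quantile normalization, and the HEK-EV estimate stayed below 0 under each scaling.

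Casp1, the protease that ASC recruits, was at 140.02, 148 and 151 TPM in PBS, at 154, 132 and 131 TPM in HEK-EV and at 138, 119 and 124 TPM in MSC-EV. Each MSC-EV sample was below each PBS sample, with PBS replicate 1 and MSC-EV replicate 1 the closest, and MSC-EV overlapped HEK-EV. The estimate against PBS was -0.20 (SE 0.0788, interval -0.38 to -0.02, limma adjusted p = 0.162), and against HEK-EV it was -0.13 (limma adjusted p = 0.371). Leaving out 1 sample gave -0.19 to -0.053 against HEK-EV. Against PBS the MSC-EV estimates of Nlrp3 and Casp1 thus differed in sign, while against HEK-EV both were below 0. The ratio of Nlrp3 to Casp1, taken after the values were seen, was 0.651 to 0.695 in PBS, 0.701 to 1.15 in HEK-EV and 0.850 to 0.904 in MSC-EV, and was given no test.

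Casp4, the lipopolysaccharide sensor, was at 40.4, 55.9 and 58.6 TPM in PBS, at 59.3, 48.3 and 53.8 TPM in HEK-EV and at 44.9, 35.2 and 35.02 TPM in MSC-EV. All MSC-EV samples were below all HEK-EV samples, but PBS replicate 1 fell among the MSC-EV samples. The estimate was -0.41 against PBS (SE 0.150, interval -0.75 to -0.07, limma adjusted p = 0.140) and -0.48 against HEK-EV (SE 0.150, interval -0.82 to -0.14, limma adjusted p = 0.0893). Without PBS replicate 1 the limma adjusted p values were 0.0189 and 0.0303, and the estimate against PBS was -0.57. Without that library 1861 of all genes passed against PBS and 1369 against HEK-EV, beside 706 and 817 in the reported fit. Against HEK-EV the limma adjusted p of Casp4 was also 0.0495 with only the 6 samples compared and 0.0353 with depth as a covariate. In those settings 1098 and 1516 of all genes passed. Of the 19 alternatives, Casp4 passed under 1 against PBS and 3 against HEK-EV (limma adjusted p up to 0.385 and 0.239). Casp1 and Casp4 are neighbours on chromosome 9, at chr9:5298517-5307281 and chr9:5308823-5336791 (mm10, plus strand).

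Gsdmd, the executioner of pyroptosis, was at 144, 177 and 164 TPM in PBS, at 161, 151 and 146 TPM in HEK-EV and at 136, 125 and 129 TPM in MSC-EV. The MSC-EV samples were the 3 lowest of the 9, with less spread (SD 5.21 TPM) than those of PBS (SD 16.8 TPM). The estimate against PBS was -0.31 (SE 0.0777, interval -0.49 to -0.14), and its limma adjusted p of 0.0536 just missed the threshold. That p was 0.00718 without PBS replicate 1 and 0.0358 with depth as a covariate. In those settings 1861 and 1447 of all genes passed against PBS, beside 706 in the reported fit. Against HEK-EV the estimate was -0.23 (limma adjusted p = 0.110), which became 0.0418 and 0.0488 in those same settings. There 1369 and 1516 of all genes passed against HEK-EV, beside 817 in the reported fit. Gsdmd passed under 2 of the 19 alternatives in each of these comparisons (limma adjusted p up to 0.194 against PBS and 0.306 against HEK-EV). The difference of HEK-EV from PBS was -0.08 (limma adjusted p = 0.999).

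To show what lies before the start of the genes of this set on chromosome 9, upstream sequences (RefSeq, GRCm38.p6, plus strand, 5′ to 3′) are given for the caspase pair and for Il18. Capitals mark the letters searched for NF-kB (GGG, any 5 bases, CC) on either strand, overlapping matches joined. The stretches are chr9:5298267-5298516, chr9:5308599-5308822 and chr9:50554450-50554699, and each ends before the first transcribed base in the files.
Casp1: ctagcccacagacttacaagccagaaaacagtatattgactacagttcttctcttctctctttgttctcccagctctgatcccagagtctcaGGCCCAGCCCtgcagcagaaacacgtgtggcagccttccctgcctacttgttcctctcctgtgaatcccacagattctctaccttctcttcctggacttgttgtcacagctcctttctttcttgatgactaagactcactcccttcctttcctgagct
Casp4: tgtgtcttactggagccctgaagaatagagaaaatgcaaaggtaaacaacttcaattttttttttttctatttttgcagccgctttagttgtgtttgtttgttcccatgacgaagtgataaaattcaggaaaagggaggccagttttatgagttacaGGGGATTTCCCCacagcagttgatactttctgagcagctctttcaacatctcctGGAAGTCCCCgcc
Il18: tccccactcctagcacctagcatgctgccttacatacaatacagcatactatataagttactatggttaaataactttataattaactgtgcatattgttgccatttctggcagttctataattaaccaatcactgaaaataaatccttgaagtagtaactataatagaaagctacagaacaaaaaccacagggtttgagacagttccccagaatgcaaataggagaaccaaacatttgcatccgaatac
Promoter windows of 300 bases were found for 8 of the 9 genes, all but Gsdmd. Those of Aim2 (chr1:173420354-173420653) and Naip5 (chr13:100247287-100247586) lie inside the spans given above, not at the start of the span. The NF-kB letters were in those of Nlrp3, Naip5, Casp1 and Casp4, 4 of the 8, and in 50.8% of the 32851 windows of all genes, so a match is common. The letters of PU.1, a myeloid factor (GAGGAAGT), were in those of Aim2 and Pycard, and in 3.2% of all windows. The interferon-stimulated response element core (GAAA, any 2 bases, GAAA, in 3.44% of all windows) and the interferon gamma activated site (TTCNNNGAA, in 8.3%) were in none of the 8. Both strands were searched, and a match is a description, not a site shown to be used.

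The other genes of the pathway came from 8 lists of 43 genes, of which 39 passed the filter; Nlrp6, Gsdma, Gsdmc and Il33 were at or below 1.12 TPM in every sample. Against PBS, 1 of the 39 fell in MSC-EV and 0 rose, with a median of -0.03, where 3.25% of all genes fell and 1.86% rose. That gene, Naip2, encodes a receptor for bacterial secretion-system proteins. It was at 61.9, 73.6 and 65.7 TPM in PBS, at 70.1, 63.2 and 68.7 TPM in HEK-EV and at 47.4, 49.0 and 52.3 TPM in MSC-EV. All MSC-EV samples were below all others. Naip2 fell by 0.43 against PBS (SE 0.0760, limma adjusted p = 0.0244) and by 0.43 against HEK-EV (limma adjusted p = 0.0225); it may share reads with the other Naip genes. The call against PBS was lost without PBS replicate 2 (0.108) or 3 (0.0808), without MSC-EV replicate 1 (0.108) or 2 (0.0753), with only the 6 samples compared (0.0565) and with the acinar term (0.119), all limma adjusted p. That against HEK-EV was lost without HEK-EV replicate 1 (0.0661), 2 (0.0531) or 3 (0.0635) and without MSC-EV replicate 1 (0.0995) or 2 (0.0725). With the libraries named for each comparison left out in turn, at most 59 of all genes passed against PBS and at most 31 against HEK-EV.

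Of the 39 pathway genes, 0 passed in limma for HEK-EV against PBS, and 7 had an unadjusted p under 0.05, all higher, where 2.32% of all genes were. In the same comparison 8 of 8 neutrophil markers were above 0 and 0 passed (median 0.36), where 8434 of all 13820 genes were above 0. The part of neutrophils in the higher HEK-EV values was not tested. MSC-EV was lower than HEK-EV in 3 of the 39, Naip2, Il1rap and Mefv, and higher in 0, where 4.4% and 1.51% of all genes were. The higher calls over all genes were 25.6% of the calls, and 46.3% with median-of-ratios scaling, 45.5% with quantile normalization and 54.8% with FPKM. Il1rap, the shared subunit of the receptors for IL-1 and IL-33, was at 15.4, 17.3 and 17.1 TPM in PBS, at 23.2, 20.2 and 25.7 TPM in HEK-EV and at 16.9, 13.3 and 16.2 TPM in MSC-EV. HEK-EV stood above both other groups, which overlapped. Il1rap fell by 0.55 in MSC-EV against HEK-EV (SE 0.111, limma adjusted p = 0.0282), and HEK-EV differed from PBS by 0.45 (limma adjusted p = 0.999). This call was lost with no filter (0.0581), without HEK-EV replicate 1 (0.0790), 2 (0.0531) or 3 (0.0828) and without MSC-EV replicate 1 (0.0933) or 2 (0.0872). Without each of those libraries at most 31 of all genes passed in that comparison.

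Mefv encodes pyrin, an inflammasome sensor, and is abundant in neutrophils. It was at 41.1, 48.2 and 51.5 TPM in PBS, at 65.2, 50.8 and 58.7 TPM in HEK-EV and at 40.9, 44.7 and 33.7 TPM in MSC-EV. MSC-EV was below HEK-EV in every sample, and PBS overlapped both. Mefv fell by 0.54 in MSC-EV against HEK-EV (SE 0.128, limma adjusted p = 0.0422). The call was lost with each HEK-EV and each MSC-EV library left out in turn, for HEK-EV at 0.122, 0.0598 and 0.111 and for MSC-EV at 0.120, 0.0734 and 0.0825, and without PBS replicate 2 (0.0598). It was also lost with no filter (0.0942), with FPKM (0.0917), median-of-ratios scaling (0.0874) or quantile normalization (0.0861), and with the acinar term (0.0543). Of all genes, 1, 0 and 31 passed without HEK-EV replicate 1, 2 and 3. Without MSC-EV replicate 1, 2 and 3 in turn, 0, 0 and 621 did. The neutrophil markers differed between these groups as well: their sum was 5113 to 7015 TPM in HEK-EV and 2999.5 to 3811 TPM in MSC-EV, and 8 of 8 were below 0 in MSC-EV against HEK-EV, 1 of them past the threshold (median -0.63). Of all 13820 genes, 7429 were below 0 in that comparison. The part of neutrophils in the Mefv and Il1rap differences was not tested.

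**Figure D4:**
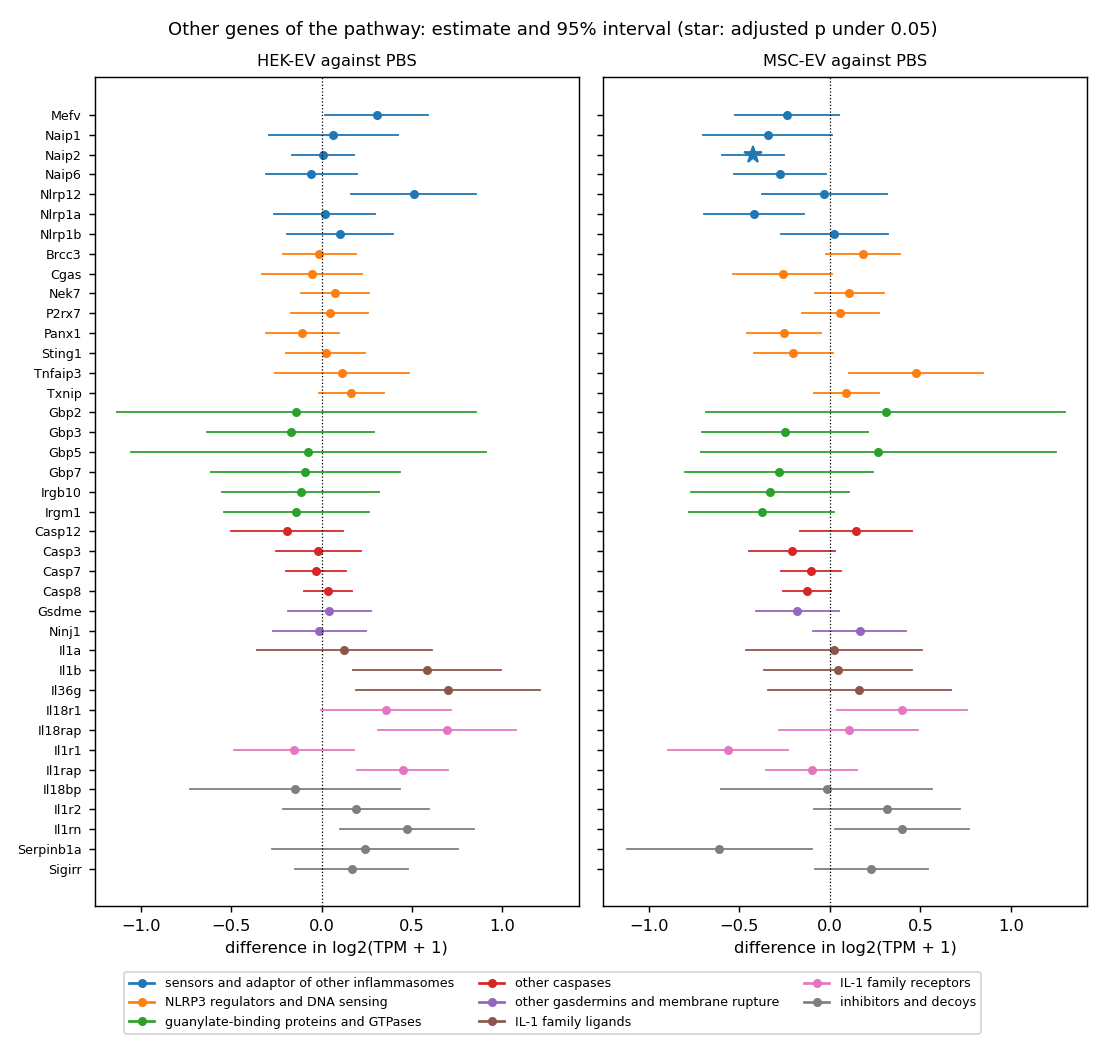
Difference from PBS in log2(TPM + 1), with its 95% interval from limma, for the 39 other genes of the pathway in HEK-EV (left) and MSC-EV (right), coloured by list. The star marks Naip2 in MSC-EV at -0.43, the only gene of the 39 with an adjusted p under 0.05 in these comparisons.

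Of the abundant pathway genes that did not pass, Il1b, the other main cytokine that caspase-1 matures, was at 1319, 1546 and 2158 TPM in PBS, at 2236, 2229 and 2963 TPM in HEK-EV and at 1871, 1732 and 1496 TPM in MSC-EV. HEK-EV was above both other groups, and MSC-EV lay within the range of PBS. Its estimates were 0.58 for HEK-EV against PBS (SE 0.182, limma adjusted p = 0.999), 0.05 for MSC-EV against PBS (limma adjusted p = 0.909) and -0.54 for MSC-EV against HEK-EV (limma adjusted p = 0.114). Il1b thus did not share the order of the groups seen in Il18. The ratio of Il1b to Il18, taken after the values were seen and not tested, was 18.9 to 30.8 in PBS, 35.3 to 52.7 in HEK-EV and 27.4 to 44.5 in MSC-EV.

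The other 7 were less abundant. Txnip, which binds NLRP3 in oxidative stress, had means of 287, 321 and 306 TPM in PBS, HEK-EV and MSC-EV, in that order as in the rest of this paragraph. Ninj1, which ruptures the membrane of dying cells, had means of 198, 197 and 222 TPM, and the IL-1 decoy receptor Il1r2 had means of 174, 204 and 216 TPM. Il18bp, the secreted inhibitor of IL-18, had means of 137, 128 and 137 TPM, with an MSC-EV difference from PBS of -0.02 (interval -0.60 to 0.56, limma adjusted p = 0.978). Irgm1, an interferon-induced GTPase, had means of 186, 168 and 144 TPM, and Casp8, a caspase of extrinsic apoptosis, had means of 121, 125 and 111 TPM. Tnfaip3, which encodes the NF-kB inhibitor A20, had means of 96.5, 106 and 135 TPM and the highest estimate of the 39 in MSC-EV against PBS at 0.48 (SE 0.165, limma adjusted p = 0.121).

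Markers of some cell types moved with MSC-EV in the same comparison as Il18, where 6589 of all 13820 genes were below 0. The summed Kupffer cell markers, those of the resident macrophages of the liver, were 3130, 2953 and 2604 TPM in PBS, 1775, 2929 and 3664 TPM in HEK-EV and 1854, 1460 and 2539 TPM in MSC-EV. Of these 6 markers, 6 were below 0 in MSC-EV against PBS and 0 passed in limma (median -0.67). The liver endothelial markers summed to 325, 291 and 253 TPM in PBS, 169 to 365 TPM in HEK-EV and 152, 106 and 219 TPM in MSC-EV, and 6 of 6 were below 0 against PBS with 0 past the threshold (median -0.79). The Ly6C-high monocyte markers summed to 6021, 11477 and 12031 TPM in PBS, to 8407, 7610 and 9731.5 TPM in HEK-EV and to 3656, 4270 and 4565 TPM in MSC-EV, and 8 of 8 were below 0 against PBS, 4 past the threshold (median -1.17). Of the 8 neutrophil markers, 8 were below 0 against PBS and 0 passed in limma (median -0.30). Dendritic cell markers split, with 3 of 6 below 0 and 3 above (median -0.02). Of the 8 lymphocyte markers 3 were tested, all above 0, with 1 past the threshold. PBS replicate 1 was lowest of its group in the summed Ly6C-high monocyte and neutrophil markers and highest in those of Kupffer and endothelial cells. It was also lowest of its group in Nlrp3, Aim2, Casp1, Casp4, Gsdmd and Il18.

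Casp4 and the guanylate-binding proteins are known to be inducible by interferon. The 8 interferon response genes, which mark no cell type, summed to 1396, 2888 and 2299 TPM in PBS, to 2032, 1554 and 1918 TPM in HEK-EV and to 1265.5, 914 and 1259 TPM in MSC-EV. All 8 were below 0 in MSC-EV against PBS and 1 passed (median -0.91). Of the 6 guanylate-binding proteins and GTPases, 4 were below 0 and 2 above in that comparison, and 0 passed (median -0.26). Biliary epithelial markers ran the other way, from 9.29 to 13.1 TPM in PBS, from 12.3 to 15.1 TPM in HEK-EV and from 20.4 to 33.0 TPM in MSC-EV, with 4 of 6 higher past the threshold in MSC-EV against PBS. Hepatocyte markers summed to 204 to 275 TPM in PBS, 145 to 301 TPM in HEK-EV and 381 to 489 TPM in MSC-EV. Of the 6 general myeloid genes, 4 were below 0 and 2 above in MSC-EV against PBS (median -0.09). Ptprc fell by 0.46 (limma adjusted p = 0.0271), Itgam differed by -0.53 (limma adjusted p = 0.0553) and Cd68 by 0.32 (limma adjusted p = 0.0513), and the other 3 lay between -0.13 and 0.09. The part of these shifts in the Il18, Gsdmd and Naip differences was not tested.

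**Figure D5:**
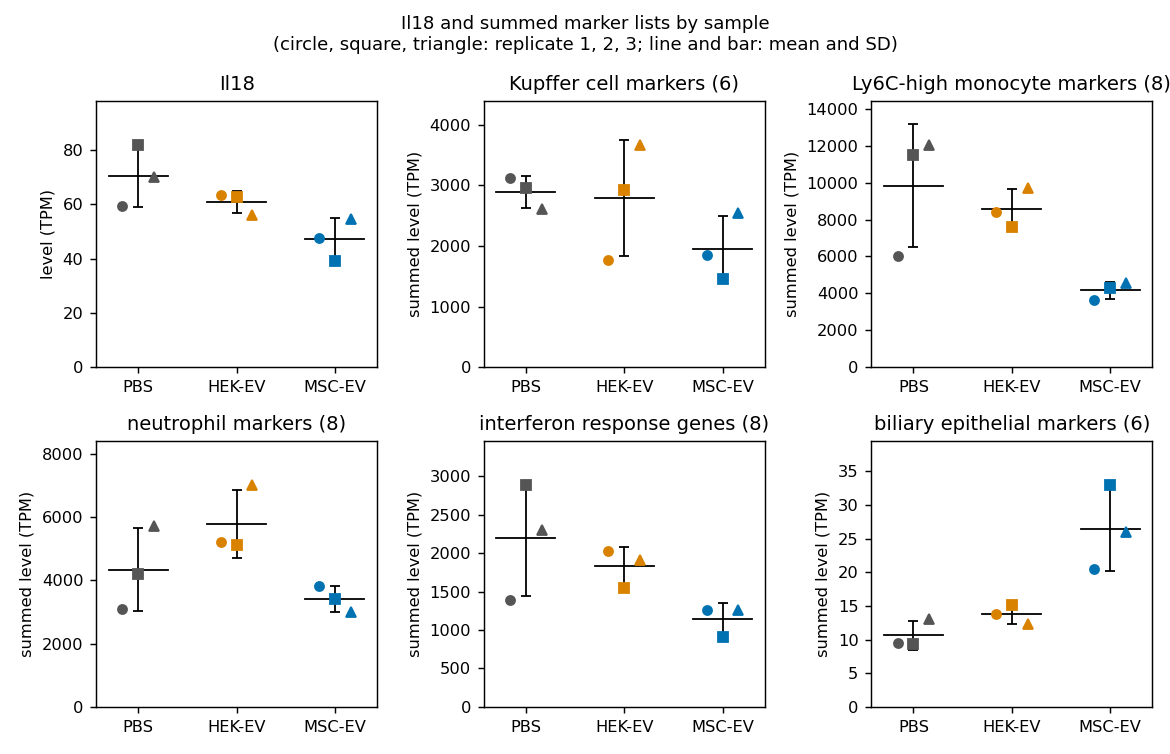
Level of Il18 and summed level of 5 gene lists in every library (TPM, linear axes from 0), with the mean and SD of each group; the number of genes of a list is in its title. Il18, Kupffer cell, Ly6C-high monocyte and interferon response genes are lower in all MSC-EV samples than in all PBS samples, and biliary markers are higher.

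The genes whose pattern over the 9 samples was closest were found for the 4 members with the widest range. Likeness was the root mean square difference of log2(TPM + 1) after centring each gene, over 10261 tested genes with a mean of at least 5 TPM. For Il18, with a range of 1.05 on the log2 scale, they were Tpst1, a tyrosine sulfotransferase (0.0805), and Coro2a, a coronin (0.0826). For Casp4, with a range of 0.74, they were Nod2, a sensor of bacterial peptidoglycan (0.0601), and C3, the central complement component (0.0765). For Nlrp3, with a range of 0.72, they were the histone demethylase Kdm6b (0.0626) and the transcription factor Ets2 (0.0657). For Naip5, with a range of 0.50, they were the protease gene Fam111a (0.0371) and the zinc finger gene Zfp217 (0.0381). These are descriptions over samples that share their libraries.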

How the data were processed

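CD11b+ cells from mouse liver after APAP were measured by bulk RNA sequencing in 9 samples, 3 per group, grouped by the treatment in their labels. Libraries were made with a stranded mRNA kit, per the labels' protocols. Reads were aligned with HISAT2 2.1.0 to mm10 and assembled with StringTie, as far as the submitters' processing notes name builds and tools; the annotation and the strand setting are not given in the sources used here. Each table holds coverage (a mean read signal over a gene), FPKM and TPM per gene, per the file headers. The deposited TPM total 1000000 per sample. FPKM as deposited by the authors were used only as an alternative, and the deposited coverage signal only for its ratio to FPKM, which follows depth; reads per sample are unknown, so no counting interval was computed.

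Rows of a gene ID were summed. IDs were matched to RefSeq GRCm38.p6, where 45679 of 45777 had a symbol; start and end were equal for 96.4%, and coordinates given are the files' own. Genes that reached 1 TPM in 3 or more samples were tested on log2(TPM + 1) in R 4.3.3 with the linear models of limma 3.58.1 and its trended empirical Bayes step (all 9 samples in 1 model, no covariate, two-sided). P-values were adjusted by Benjamini-Hochberg across all 13820 tested genes, with a threshold of 0.05. The fit was tested on simulated data, and no value given here rests on that test.

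All 9 members are named. Of the pathway lists, genes past the threshold and the 8 of highest mean among the others are named, and of similar genes 2 for each of the 4 members of widest range; Ptprc, Itgam, Cd68, Lyz2 and marker sums are checks. Members, lists and alternatives were chosen with earlier results of these data known. Python 3.11.15, numpy 2.4.6, pandas 2.3.3 and matplotlib 3.10.9 were used for tables, motif searches and figures.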

Additional observations from a re-analysis of the deposited data

Results flagged for a closer look

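In 3 pathway genes the effects of MSC-EV and HEK-EV differed (limma, Benjamini-Hochberg over 13820 genes). Since both effects are set against the same PBS samples, this is the comparison of MSC-EV with HEK-EV already reported and no further test. The MSC-EV effect differed by -0.433 on the log2 scale for Naip2 (adjusted p = 0.0225), with MSC-EV below HEK-EV in every sample. It differed by -0.549 for Il1rap (adjusted p = 0.0282), again with MSC-EV below HEK-EV in every sample. For Mefv the difference was -0.541 (adjusted p = 0.0422), also with no overlap. Each of these calls was lost without any 1 of the HEK-EV libraries (limma adjusted p 0.0531 to 0.122), and of 19 alternatives Naip2 passed in 14, Il1rap in 13 and Mefv in 6. Of all genes tested 5.91% passed, and 1, 0 and 31 genes did without HEK-EV replicate 1, 2 and 3 in turn. None of the 9 inflammasome and pyroptosis genes passed in limma, and 5 were lower with an unadjusted p under 0.05, where 15.1% of all genes were. Groups of 3 are too small for a test of single samples that stand apart.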

How the results depend on the processing

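Of the 513 recomputed differences of the 9 genes (19 alternatives, 3 comparisons), 460 kept their direction and their side of the threshold, 15 lost a call, 9 gained one and 29 changed sign; the causes were not tested. Of the 9 genes, 1 passed for MSC-EV against PBS, and 0 did with no filter, FPKM, median-of-ratios scaling, quantile normalization, only the 6 samples compared or the acinar term; leaving out a sample gave 0 to 3. With depth as a covariate 1 passed, Gsdmd in place of Il18. For MSC-EV against HEK-EV 0 became 1 with only the 6 samples compared and 2 with depth, and 0 to 2 without a sample.

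Over all genes, 706 passed for MSC-EV against PBS; 361 did with no filter, 77 with only the 6 samples compared, 21 with the acinar term, 1447 with depth and 5 to 1861 without a sample. For MSC-EV against HEK-EV 817 passed; 387 did with no filter, 436 with FPKM, 512 with median-of-ratios scaling, 1516 with depth and 0 to 1369 without a sample. For HEK-EV against PBS 0 passed (495 at an unadjusted p under 0.05), 4 with no filter and 0 to 2 without a sample.

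The 9 same-numbered pairs of samples had correlations of deviations from their group means between -0.499 and 0.058. Pairs of different number ran from -0.277 to 0.548, the highest for HEK-EV replicate 2 with MSC-EV replicate 3. With 3 samples per group these values cannot decide whether samples were paired by number. With the replicate block 0 of the 9 genes passed for MSC-EV against PBS (Il18 -0.57, limma adjusted p = 0.0885), with 404 of all genes, and 448 of all genes passed for MSC-EV against HEK-EV, where Mefv no longer did (limma adjusted p = 0.0870).

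Signs changed only for small estimates, none past the threshold. Against PBS in HEK-EV, Aim2 was -0.0077 with FPKM, -0.019 with median-of-ratios scaling, -0.0098 with quantile normalization, -0.095 with the acinar term, -0.054 with depth and -0.051 to 0.108 without a sample. Nlrc4 was -0.029 with the acinar term. Pycard was 0.032 with that term, 0.017 with depth and -0.043 to 0.023 without a sample. Casp4 was -0.10 with depth and -0.092 to 0.172 without a sample, and Naip5 -0.077 to 0.017 without a sample. Naip2 was -0.015 with FPKM, -0.026 with median-of-ratios scaling, -0.023 with quantile normalization, -0.039 with depth and -0.048 to 0.075 without a sample. Against PBS in MSC-EV, Pycard was 0.040 with FPKM, 0.035 with quantile normalization, 0.034 with the acinar term, 0.035 with depth and -0.041 to 0.056 without a sample. In MSC-EV against HEK-EV, Pycard was -0.027 to 0.060 and Nlrp3 -0.23 to 0.0095 without a sample.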

Other observations

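Some pathway genes outside the rule for named genes, chosen after their values were seen, were high in single libraries. Gbp2, a guanylate-binding protein that attacks bacterial vacuoles, was at 196 TPM in MSC-EV replicate 1 and at 50.9 to 97.3 TPM in the other 8 libraries. Gbp5, which promotes NLRP3 assembly, was at 57.8 TPM in that library and at 14.9 to 28.3 TPM elsewhere. The interferon response genes of that library summed to 1265.5 TPM, beside 914 and 1259 TPM in the other MSC-EV libraries. Il18rap, a subunit of the IL-18 receptor, was at 13.9, 13.3 and 18.8 TPM in HEK-EV, above the 8.41, 8.92 and 9.78 TPM of PBS and the 12.2, 7.58 and 9.98 TPM of MSC-EV; its estimate of 0.69 against PBS (SE 0.170) had a limma adjusted p of 0.999 and an unadjusted p of 0.00258. Il18r1, its partner, was at 1.37 TPM or less in every library. Il1rn, the IL-1 receptor antagonist, was at 62.9, 63.9 and 77.7 TPM in PBS, 103, 92.9 and 88.6 TPM in HEK-EV and 112, 95.8 and 67.4 TPM in MSC-EV, with limma adjusted p values of 0.999 and 0.186 against PBS.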
